A study of Mirounga angustirostris with 8 samples.

Results

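The genes described here are the mitochondrial ribosomal protein genes of northern elephant seal (NES, Mirounga angustirostris) skeletal muscle, compared between the end and the start of the annual molt. Members were the entries of the deposited count table whose symbol begins with MRPL or MRPS followed by a number and whose counts summed to 80 or more over the 8 libraries. The rule gave 76 genes of 24338 named entries, 48 with an MRPL and 28 with an MRPS symbol. All 76 matching symbols passed the minimum, with summed counts of 1963 to 58596, so no matching gene lay just outside it. The rule did not use the comparison between the times.

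RNA came from biopsies of the longissimus dorsi, a back muscle, of adult females that fasted on land with reduced activity. The 4 post-molt libraries (late molt, seals 4448, 5572, 9678 and X410) were made from biopsies taken late in the molt, a mean of 34 days after the early biopsy (not a value for these 4 seals alone), and the 4 pre-molt libraries (early molt, seals 5572, 5842, 6762 and C497) from biopsies of seals ashore for at most 5 days. The libraries came from 7 seals in all. Only seal 5572 gave one at each time, so the comparison was unpaired and holds differences between seals. The study chose these libraries from a larger set as those of each time with the most unique reads, because low-quality RNA gave poor sequencing in some samples. In the study's mapping summary, the share of uniquely mapped reads was lowest in post-molt 9678, followed by pre-molt 5842. No group without fasting or without time on land was included.

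The mitochondrial ribosome, or mitoribosome, translates the few messenger RNAs that mitochondrial DNA encodes, which specify core subunits of the respiratory chain and of ATP synthase. All its proteins are encoded in the nucleus, made on cytosolic ribosomes and imported, and are joined in the mitochondrion to RNAs transcribed from mitochondrial DNA. Oxidative muscle depends on this route, since complexes I, III, IV and V cannot be assembled without subunits translated in the mitochondrion.

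Counts per library totalled 30769570 to 61216192 post-molt and 37897904 to 56137977 pre-molt, and 12676 to 18044 genes had a count in a library. Muscle markers (10 of 12 listed were in the table) summed to 186392 to 270082 CPM (counts scaled by library size) post-molt and 199828 to 317738 CPM pre-molt. Markers of blood (3 of 7 listed were in the table) summed to at most 1.39 CPM in any library. Those of skin (4 of 6 listed were in the table) summed to at most 11 CPM. SLC4A1, KRT10 and DSG1 were at 0 in all 8 libraries. Since listed markers were missing from the table, these low sums do not show that blood or skin was absent. Fibroblast markers (6 genes) summed to 169 to 443 CPM post-molt and 413 to 1355 CPM pre-molt, with the highest sum in the pre-molt library of seal 5842. Their edgeR adjusted p did not pass in any of the 6, and 4 had an unadjusted p under 0.05, all lower post-molt (against 6.22% of all genes). Adipocyte markers summed to 86.8 to 182 CPM post-molt and 88.5 to 271 CPM pre-molt. Macrophage markers summed to 22.8 to 48.5 CPM post-molt and 19.2 to 67.9 CPM pre-molt, and endothelial markers to 368 to 434 and 406 to 546 CPM. Pre-molt 5842 had the highest sums of adipocyte and macrophage markers, and pre-molt C497 that of endothelial markers. Of 10 muscle markers tested, 3 were lower and 1 higher post-molt at an edgeR unadjusted p under 0.05 (against 6.22% and 5.2% of all genes). Lower were also 1 of 6 adipocyte, 1 of 6 endothelial and 0 of 6 macrophage markers, and 0 were higher. Median log2 fold changes, post-molt over pre-molt, were -0.43 (muscle), -0.89 (adipocyte), -0.24 (endothelial) and 0.04 (macrophage). In bulk tissue, fewer cells of a type and less RNA per cell cannot be told apart.

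The mitochondrial ribosomal protein genes had small fold changes between the times. The median log2 fold change, post-molt over pre-molt, was -0.14 over the 76 members, -0.13 over MRPL and -0.19 over MRPS, against -0.04 over all 14312 genes tested. Of the 76, 49 (64.5%) had a fold change below 0, against 53.6% of all genes. Without pre-molt 5842 and post-molt 9678, an alternative chosen after seeing the data, the median of the 76 was -0.01. Pre-molt 5842 had the highest mean level of the members, and post-molt 9678 a mean below that of every pre-molt library. Leaving them out thus moves the median upward by construction. The median was -0.05 without pre-molt 5842 alone and -0.20 without pre-molt C497, and below 0 in each of the 8 fits that left out 1 library.

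No member passed the test, which does not show that none changed, since a test of 4 against 4 libraries can miss a change of 1 log2 unit. With edgeR's quasi-likelihood test at a Benjamini-Hochberg adjusted p under 0.05, 0 members were higher and 0 lower post-molt, where the test called 0.217% of all genes as higher and 0.133% as lower, 0.349% in all. At an unadjusted p under 0.05, 5 members (6.58%) were lower, close to the 6.22% of all genes, and 2 (2.63%) were higher, against 5.2% of all genes. DESeq2 called 2 members lower (2.63%, against 2.88% of the genes it gave an adjusted p) and 0 higher (against 3.01%). With limma-voom, which called 0.657% of all genes, 0 members passed. Of the 5 members lower at an unadjusted p, 2 were MRPL and 3 MRPS genes, and both higher ones were MRPL genes.

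The intervals of the fold changes were narrow enough to bound most members. The 95% interval of 56 of 76 members (73.7%) lay wholly between -1 and 1 on the log2 scale (1 unit is a factor of 2), against 37.6% of all genes. The median distance from a member's fold change to the end of its interval was 0.53. The fold changes themselves lay within 0.5 of 0 in 67 of 76 members (88.2%, against 62.2% of all genes), and 1 member, MRPL10, lay beyond 1. The SD of the fold changes was 0.32 over the members and 0.78 over all genes. The members had more reads than most genes, with a mean log2 CPM above that of all genes by 1.61 to 2.18 in the 8 libraries. Fold changes are less precise in genes with few reads, and the part of read number in these differences was not tested.

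**Figure D1:**
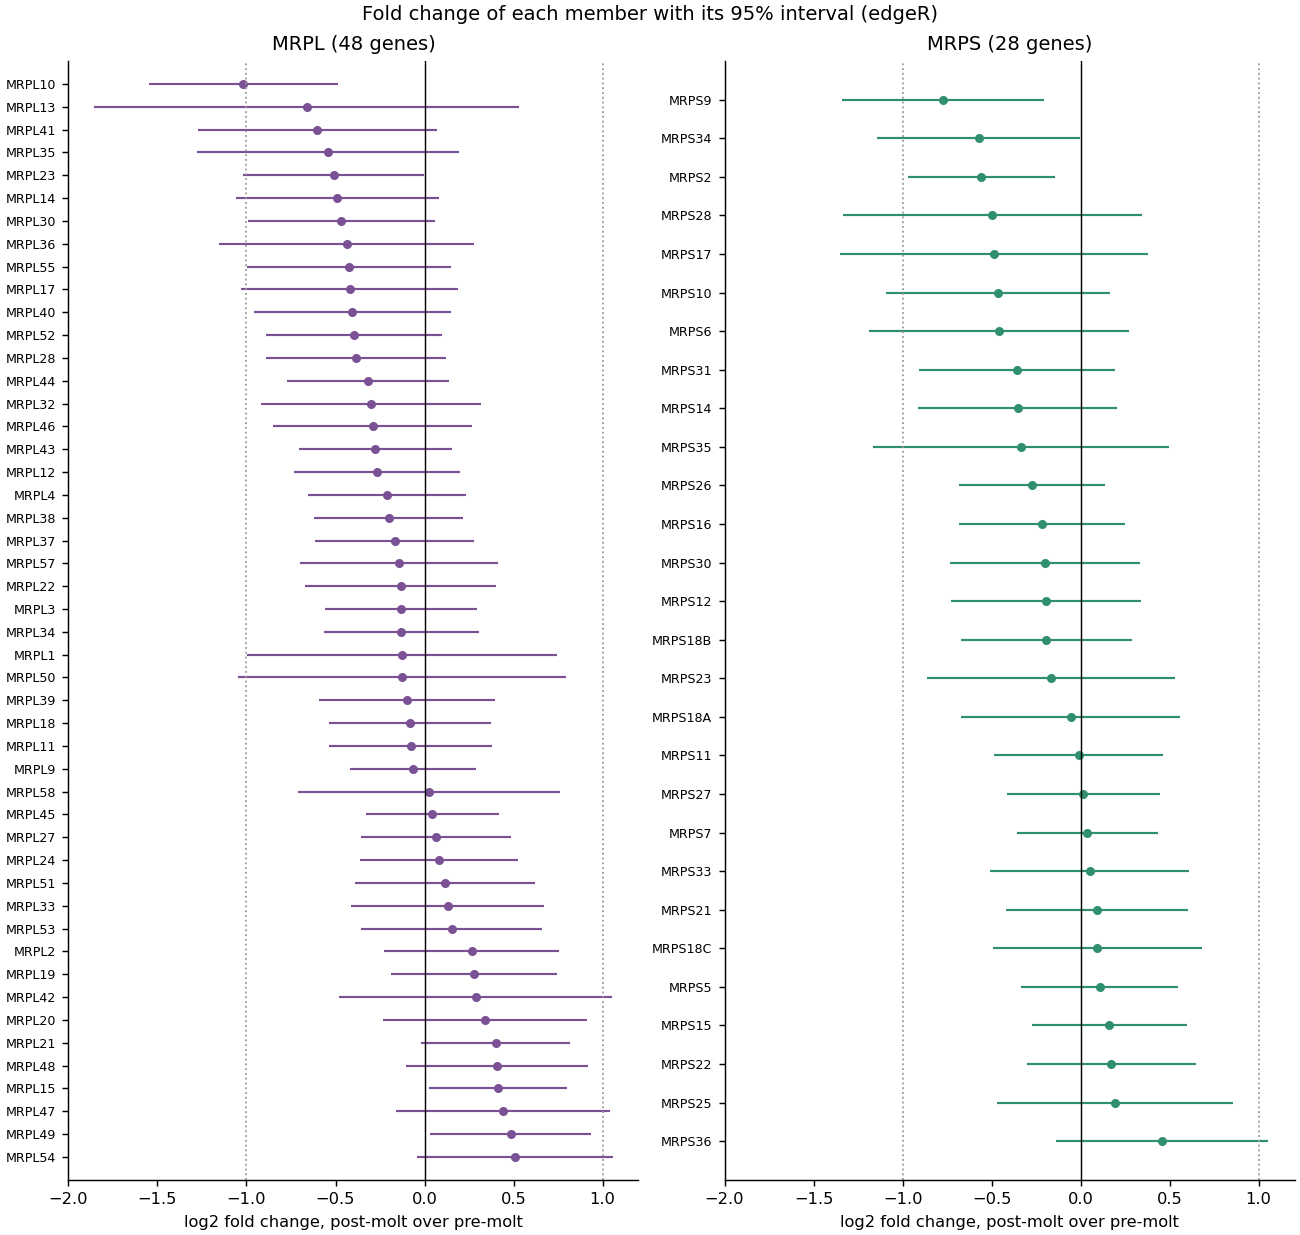
Log2 fold change, post-molt over pre-molt (x axis), of 48 MRPL genes (left) and 28 MRPS genes (right), ordered from lowest at the top; points are the edgeR estimates, bars their 95% intervals, and dotted lines mark -1 and 1. MRPL10 at the top left has the lowest value, -1.02, and the intervals of 56 of the 76 genes stay between the dotted lines.

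The cytosolic ribosomal protein genes, which build the ribosomes that translate nuclear messages, served as the nearest comparison. Of 78 tested, 77 had a fold change below 0, with a median of -0.86. As with the members, 0 passed the edgeR adjusted p, and limma-voom called 1 lower. DESeq2 called 38 lower (48.7%, against 2.88% of the genes it gave an adjusted p). With edgeR 69 had an unadjusted p under 0.05, all lower (88.5%, against 6.22% of all genes). The interval of only 5 of the 78 lay between -1 and 1, against 56 of the 76 mitochondrial members. Over 78 cytosolic genes the median stayed between -0.97 and -0.52 when 1 library was left out. The difference between the lists was not tested.

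**Figure D2:**
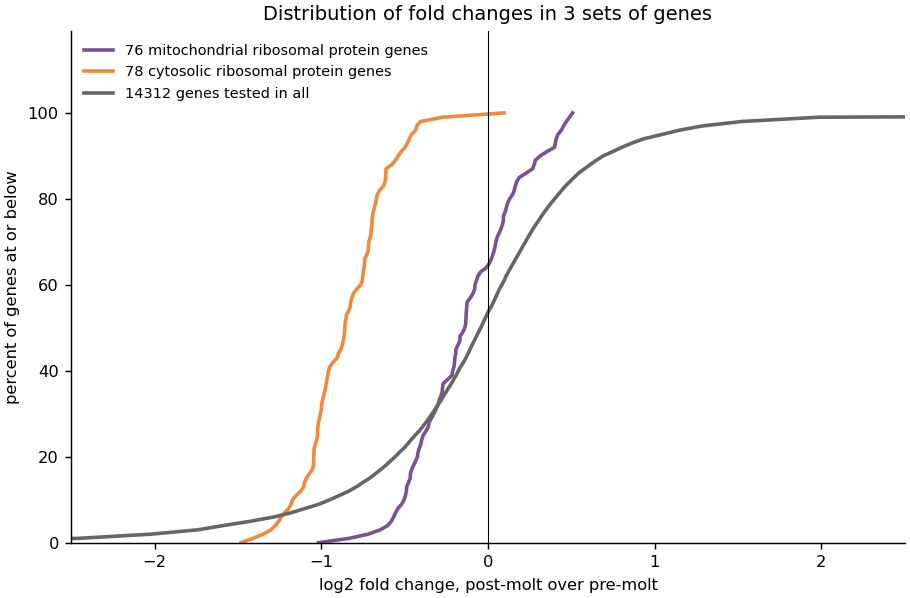
Percent of genes (y axis) with a log2 fold change, post-molt over pre-molt, at or below the value on the x axis, for 76 mitochondrial ribosomal protein genes, 78 cytosolic ribosomal protein genes and all 14312 genes tested. The curve of the mitochondrial genes crosses the middle at -0.14, close to that of all genes at -0.04, and is steeper, while that of the cytosolic genes crosses at -0.86.

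The levels of the members overlapped between the times. The mean log2 CPM over the 76 members was 4.49 in post-molt 4448, 4.88 in 5572, 4.61 in 9678 and 4.95 in X410. Pre-molt it was 4.93 in 5572, 5.10 in 5842, 4.75 in 6762 and 4.72 in C497. The group means were 4.73 ± 0.22 post-molt and 4.88 ± 0.17 pre-molt (SD, n = 4 each), a difference of -0.14 that was smaller than either SD. Without library scaling factors the difference was 0.01, so its direction rests on the scaling. As a share of all counts the members took 0.261 to 0.327% post-molt and 0.274 to 0.293% pre-molt, where the cytosolic genes took 1.90 to 2.64% post-molt and 3.24 to 5.17% pre-molt without overlap.

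Within each library the members' mean was set against that of the cytosolic genes, so that the scaling factor cancels. On the log2 CPM scale the members' mean minus that of the cytosolic genes was -2.54, -2.77, -2.92 and -2.69 in post-molt 4448, 5572, 9678 and X410. In pre-molt 5572, 5842, 6762 and C497 the difference was -3.29, -3.89, -3.19 and -3.21. The groups did not overlap, with means of -2.73 ± 0.16 post-molt and -3.39 ± 0.33 pre-molt (SD, n = 4 each). Against the mean of all genes tested the groups overlapped, with the members higher by 1.64 to 2.09 post-molt and 1.61 to 2.18 pre-molt. CPM takes no account of gene length, so the difference between the times can be read but not the distance between the lists.

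**Figure D3:**
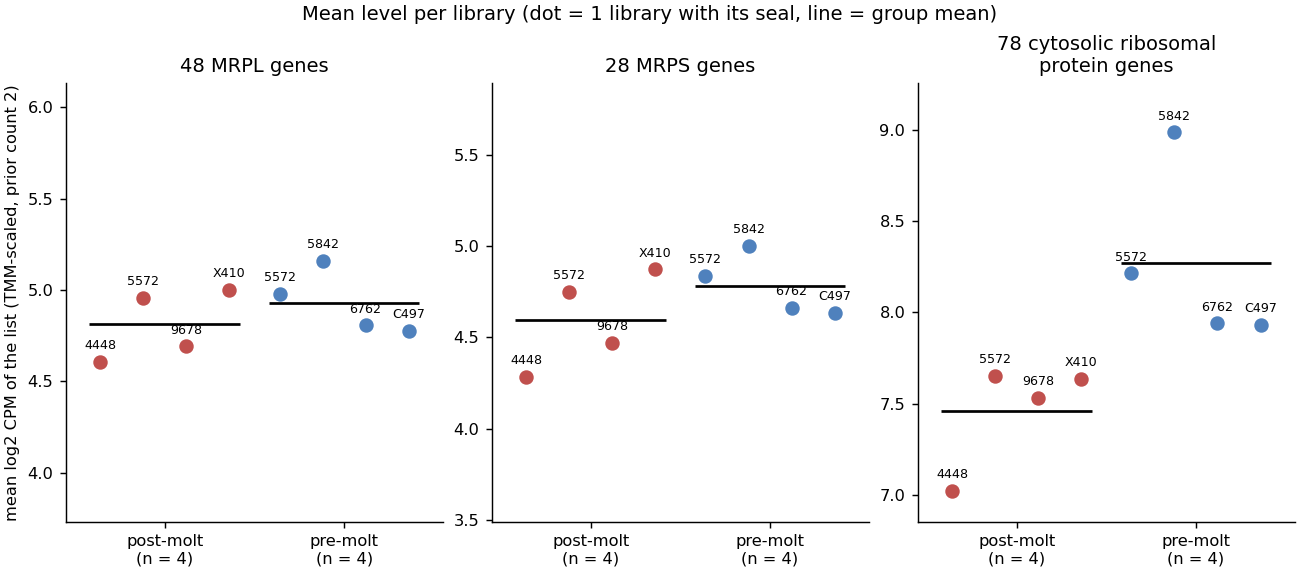
Mean log2 CPM (y axis, scaled with TMM factors, prior count 2) of the MRPL, MRPS and cytosolic ribosomal protein genes in each of 4 post-molt and 4 pre-molt libraries; dots are libraries with the name of the seal and lines are group means. The dots of the mitochondrial genes overlap between the times, and those of the cytosolic genes do not; the panels span equal heights on different parts of the scale.

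Many members had their highest or lowest value in the same library, and so did most cytosolic genes. The pre-molt library of seal 5842 held the highest value of 33 of the 76 members, where it held that of 20.4% of all genes. The post-molt library of seal 4448 held the lowest value of 33 members (43.4%, against 17.3% of all genes). Post-molt 9678 held that of 17 (22.4%, against 29.8% of all genes). Of the 78 cytosolic genes, 75 were highest in pre-molt 5842 and 76 lowest in post-molt 4448. Pre-molt 5842 also had the highest sums of fibroblast, adipocyte and macrophage markers and the smallest TMM factor (0.842). Post-molt 4448 had the lowest sum of fibroblast markers and the largest factor (1.14). The part of tissue makeup, of RNA quality and of scaling in the members' values was not tested. In seal 5572, the one animal with both times, 44 of 76 members were lower in its post-molt than in its pre-molt library, with a median log2 difference of -0.07, against 7103 of 14312 genes.

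**Figure D4:**
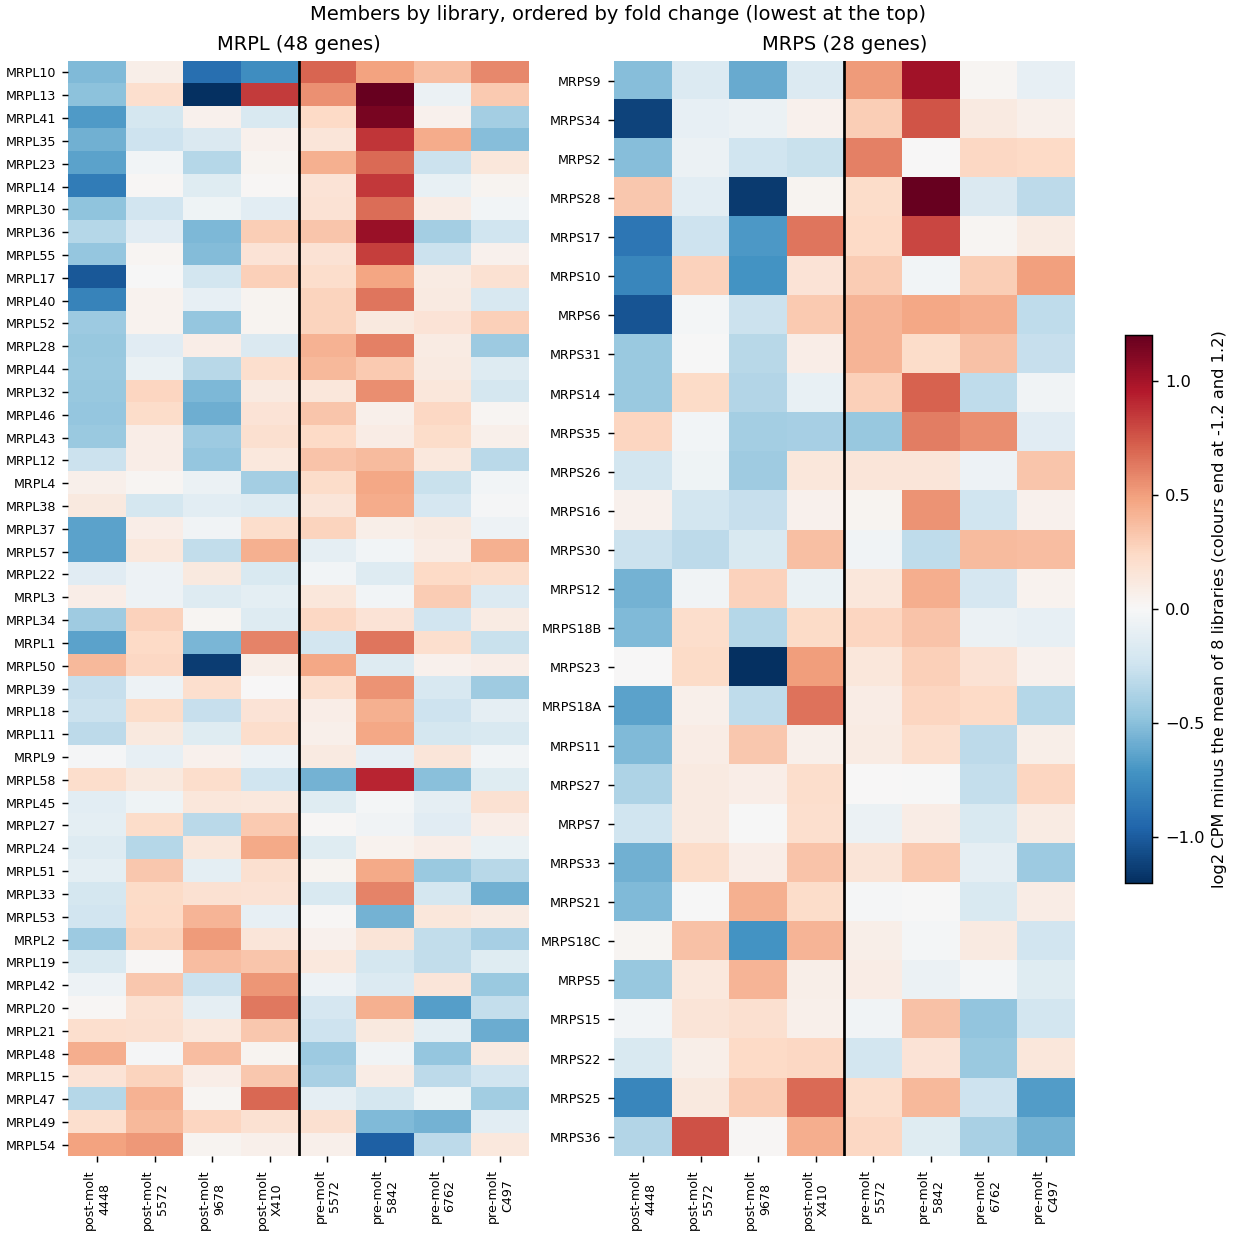
Log2 CPM minus the gene's mean over the 8 libraries (colour, red above and blue below the mean, ending at -1.2 and 1.2) for 48 MRPL and 28 MRPS genes, with 4 post-molt libraries left of the line and 4 pre-molt libraries right of it, ordered by fold change. The column of pre-molt 5842 is the reddest in 33 of 76 genes and that of post-molt 4448 the bluest in 33.

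Values of single members are given in CPM in the order of seals 4448, 5572, 9678 and X410 post-molt and 5572, 5842, 6762 and C497 pre-molt. The large subunit carries the peptidyl transferase centre, where amino acids are joined. Its stalk, formed by MRPL10 and several copies of MRPL12, recruits the translation factors. MRPL10 had 14.5, 22.1, 11.2 and 12.5 CPM post-molt, against 34.2, 29.4, 27.0 and 31.5 CPM pre-molt. Every post-molt value lay below every pre-molt value, and the highest post-molt value was that of seal 5572. The log2 fold change was -1.02 ± 0.25 (SE), with an edgeR adjusted p of 0.0844 and an unadjusted p of 0.00126. DESeq2 called it lower, with -1.01 and an adjusted p of 0.00459. The fold change stayed between -1.25 and -0.90 when 1 library was left out, and was -0.89 without pre-molt 5842 and post-molt 9678.

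MRPL12, its partner in the stalk, which in human cells also binds the mitochondrial RNA polymerase, had 131, 165, 113 and 170 CPM post-molt, against 198, 204, 170 and 125 CPM pre-molt. The groups overlapped, since pre-molt C497 was lower than 3 of the 4 post-molt libraries. The log2 fold change was -0.27 ± 0.21 (SE), with an edgeR adjusted p of 0.732, and was -0.40 without pre-molt C497 and -0.16 without pre-molt 5842. The ratio of MRPL10 to MRPL12 within a library was 0.111, 0.134, 0.0992 and 0.0738 post-molt, against 0.173, 0.145, 0.159 and 0.252 pre-molt. The ratio thus lay lower in every post-molt library. It was formed after both genes' values were seen and was not tested.

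The other large subunit genes with an unadjusted p under 0.05 were MRPL23, MRPL15 and MRPL49. MRPL23, a homolog of a bacterial protein at the exit of the peptide tunnel, had 80.9, 123, 99.8 and 129 CPM post-molt, against 170, 202, 106 and 139 CPM pre-molt. The groups overlapped, and the fold change of -0.51 ± 0.23 (SE, edgeR adjusted p = 0.434) was -0.33 without pre-molt 5842. MRPL15, which also has a bacterial homolog, had 64.4, 69.1, 60.7 and 71.9 CPM post-molt, against 43.9, 61.0, 46.0 and 49.0 CPM pre-molt. Only pre-molt 5842 reached the post-molt range, and the fold change was 0.41 ± 0.18 (SE, edgeR adjusted p = 0.385). MRPL49, a protein with no bacterial counterpart, had 46.5, 53.1, 48.3 and 45.9 CPM post-molt, against 46.3, 28.0, 27.3 and 37.0 CPM pre-molt. Here only pre-molt 5572 reached the post-molt range, with a fold change of 0.48 ± 0.21 (SE, edgeR adjusted p = 0.385).

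MRPL21 was the one member whose 4 post-molt values all lay above the pre-molt values. It had 52.1, 51.7, 49.6 and 56.7 CPM post-molt, against 38.1, 49.3, 41.8 and 30.1 CPM pre-molt. The gap between the groups was narrow, and the fold change was 0.40 ± 0.19 (SE, edgeR adjusted p = 0.466). The highest fold change of the 76 was that of MRPL54, a mitochondria-specific protein, with 51.8, 53.3, 37.9 and 38.5 CPM post-molt, against 38.6, 18.8, 29.8 and 40.5 CPM pre-molt. Its groups overlapped (0.51 ± 0.25, SE, edgeR adjusted p = 0.487). MRPL37, with the most reads in the large subunit after MRPL12, had 83.6, 138, 127 and 151 CPM post-molt, against 158, 138, 141 and 126 CPM pre-molt. The low value of post-molt 4448 stood apart there, and the fold change was -0.17 ± 0.21 (SE), -0.01 without that library and -0.27 without post-molt X410.

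**Figure D5:**
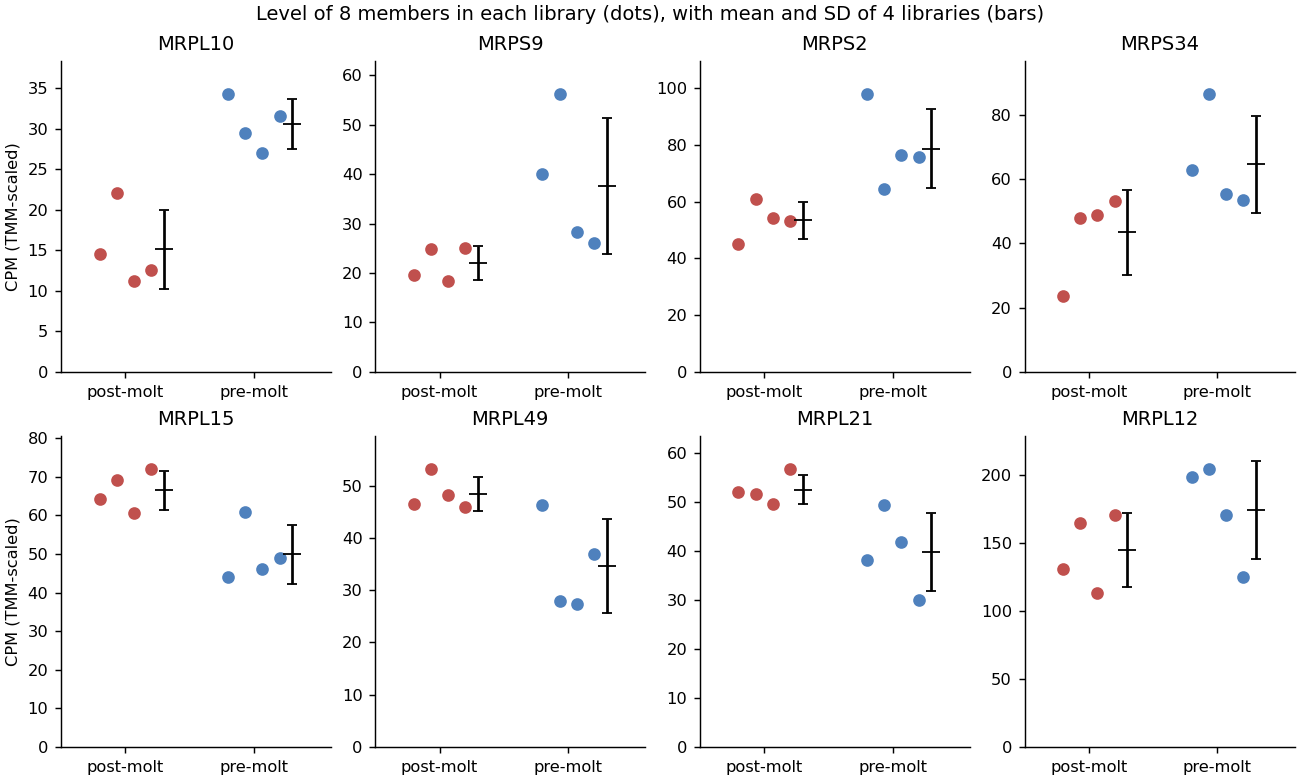
CPM (y axis, from 0) of 8 members in each of 4 post-molt libraries (left in each panel) and 4 pre-molt libraries (right); dots are libraries, and bars give the mean and SD. MRPL10, MRPS9, MRPS2 and MRPS34 lie lower in every post-molt library and MRPL21 higher in every one, while MRPL15, MRPL49 and MRPL12 overlap.

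The small subunit binds the messenger RNA and holds the decoding centre. MRPS9, a homolog of a bacterial small subunit protein, had the lowest fold change among MRPS genes, with 19.6, 24.9, 18.4 and 25.0 CPM post-molt, against 40.0, 56.2, 28.4 and 26.1 CPM pre-molt. The groups did not overlap, but pre-molt C497 was close to the highest post-molt value. The fold change was -0.78 ± 0.26 (SE, edgeR adjusted p = 0.233, DESeq2 adjusted p = 0.0973), and -0.49 without pre-molt 5842.

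MRPS2, also a homolog of a bacterial protein, had 45.0, 61.0, 54.3 and 53.2 CPM post-molt, against 97.8, 64.6, 76.3 and 75.9 CPM pre-molt. The groups did not overlap, with the highest value in pre-molt 5572. The fold change was -0.56 ± 0.19 (SE), with an edgeR adjusted p of 0.239. DESeq2 called it lower, with -0.55 and an adjusted p of 0.0475, close to the threshold.

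MRPS34 belongs to the mitochondria-specific proteins and is needed in human and mouse cells for a stable small subunit. It had 23.7, 48.0, 48.8 and 53.2 CPM post-molt, against 63.0, 86.4, 55.3 and 53.6 CPM pre-molt. The groups did not overlap, by less than 1 CPM between post-molt X410 and pre-molt C497. The fold change was -0.57 ± 0.26 (SE, edgeR adjusted p = 0.434), and -0.36 without post-molt 4448.

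Further small subunit genes had groups that overlapped. MRPS10 had 9.26, 19.3, 9.68 and 17.9 CPM post-molt, against 19.8, 15.6, 19.6 and 22.5 CPM pre-molt, with the low values in post-molt 4448 and 9678 (fold change -0.47, edgeR adjusted p = 0.618, and -0.31 without post-molt 4448). MRPS15, another homolog of a bacterial protein, had 78.6 to 92.1 CPM post-molt and 57.9 to 103 CPM pre-molt (0.16, edgeR adjusted p = 0.855), and its fold change was 0.05 without pre-molt 6762 and 0.36 without pre-molt 5842. MRPS18B, of the same subunit and counted here as mitochondria-specific by its current name, had 45.5 to 77.1 CPM post-molt and 61.7 to 83.6 CPM pre-molt. Its fold change was -0.19 (edgeR adjusted p = 0.844), with -0.30 without post-molt X410 and -0.06 without post-molt 4448. In MRPS25 the libraries of both times spread widely, with 30.1 to 83.1 CPM post-molt and 32.6 to 67.8 CPM pre-molt (0.19, edgeR adjusted p = 0.895). Its fold change was -0.02 without post-molt X410 and 0.41 without post-molt 4448.

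For 3 genes the symbol does not give the place of the protein. MRPS18A and MRPS30 are named for the small subunit but sit in the large subunit. MRPS18A had 14.5 to 35.6 CPM post-molt and 17.8 to 27.0 CPM pre-molt, with a fold change of -0.06 that ranged from -0.34 to 0.12 when 1 library was left out. MRPS30 had 17.6, 17.0, 18.6 and 27.0 CPM post-molt, against 20.5, 17.0, 27.4 and 27.3 CPM pre-molt (-0.20, edgeR adjusted p = 0.853), and its fold change was -0.38 without post-molt X410 and -0.10 without pre-molt 6762. MRPS36 is now known as a subunit of the alpha-ketoglutarate dehydrogenase complex of the citric acid cycle and not of the mitoribosome. It had 19.4, 42.1, 25.1 and 33.6 CPM post-molt, against 29.4, 22.5, 18.9 and 16.7 CPM pre-molt, the highest fold change among the MRPS symbols (0.46 ± 0.27, SE, edgeR adjusted p = 0.598). The groups overlapped, and the fold change was 0.26 without post-molt 5572 and 0.63 without pre-molt 5572.

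Counted by place, the 50 large subunit genes had a median fold change of -0.13 and the 25 small subunit genes one of -0.19. Members counted as having a bacterial homolog (44) had a median of -0.16, and those counted as mitochondria-specific (31) one of -0.15. The summed CPM of MRPL genes over that of MRPS genes was 2.41, 2.19, 2.19 and 2.08 post-molt, against 2.16, 2.20, 2.18 and 2.07 pre-molt. Post-molt 4448 alone lay above the pre-molt range.

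In 7 of the 76 members the groups did not overlap. Post-molt was lower in 6 (7.89%, against 5.11% of all genes) and higher in 1 (1.32%, against 4.05%). In both directions together 9.16% of all genes had groups without overlap. Besides MRPL10, MRPS9, MRPS2, MRPS34 and MRPL21 these were MRPL30 and MRPL52, named after their values were seen. MRPL30 had 11, 13.1, 14.8 and 14.1 CPM post-molt, against 17.4, 24.5, 16.4 and 15.0 CPM pre-molt. MRPL52 had 11.6, 16.1, 11.4 and 16.0 CPM post-molt, against 18.8, 16.9, 17.6 and 19.1 CPM pre-molt. Both had gaps between the groups of under 1 CPM, and edgeR adjusted p of 0.523 and 0.575. The fold change of MRPL30 was -0.47, and -0.27 without pre-molt 5842. In 53 of the 78 cytosolic genes the post-molt values were lower without overlap.

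Members with few reads were less precise. MRPL13, also named after its values were seen, had the lowest count of any member in a library, 44 in post-molt 9678. Its CPM was 6.21, 10.1, 1.42 and 15.8 post-molt, against 12.8, 21.0, 8.33 and 10.9 pre-molt. The fold change of -0.66 ± 0.55 (SE) had the widest interval, and was -1.16 without post-molt X410 and -0.31 without post-molt 9678. The groups overlapped. MRPL50, named for having the lowest mean CPM after its values were seen, had 2.16 to 6.32 CPM post-molt and 4.33 to 6.66 CPM pre-molt, with a fold change of -0.12 that was 0.12 without post-molt 9678.

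Partner genes of the mitoribosome were examined in 4 lists. The proteins of the small and large subunits with another symbol (5 tested) had a median fold change of -0.15, with 0 at an unadjusted p under 0.05. AURKAIP1 had 35.6 to 58.6 CPM post-molt and 35.9 to 85.0 CPM pre-molt (-0.44, edgeR adjusted p = 0.602). PTCD3, which binds the small subunit RNA, had 41.8 to 57.7 CPM post-molt and 39.2 to 49.3 CPM pre-molt (0.19, edgeR adjusted p = 0.792). The groups overlapped in both. The fold change of AURKAIP1 was -0.22 without pre-molt 5842, and that of PTCD3 was 0.29 without post-molt 5572.

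Assembly factors (27 tested) had a median of -0.11. At an unadjusted p under 0.05, 1 was lower (3.7%, against 6.22% of all genes) and 2 higher (7.41%, against 5.2%). RPUSD4, a pseudouridine synthase of the large subunit RNA, had 33.2, 31.9, 30.5 and 35.4 CPM post-molt, against 62.2, 55.4, 49.8 and 44.2 CPM pre-molt. The groups lay well apart and the post-molt values were close together. The fold change was -0.69 ± 0.18 (SE, edgeR adjusted p = 0.113), and DESeq2 called it lower, with an adjusted p of 0.00444. SPG7, a subunit of the protease that matures MRPL32, had 105, 101, 115 and 125 CPM post-molt, against 97.8, 52.4, 78.3 and 81.7 CPM pre-molt, higher in each post-molt library (0.52 ± 0.21, SE, edgeR adjusted p = 0.33).

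Translation factors and messenger RNA partners (14 tested) had a median of -0.07. At an unadjusted p under 0.05, 3 were lower (21.4%, against 6.22% of all genes) and 0 higher (against 5.2%). LRPPRC, which stabilises mitochondrial messenger RNAs, had 135, 142, 217 and 170 CPM post-molt, against 276, 355, 330 and 257 CPM pre-molt. OXA1L, the insertase that takes new proteins from the mitoribosome into the inner membrane, had 189, 269, 224 and 186 CPM post-molt, against 443, 398, 313 and 324 CPM pre-molt. TUFM, the elongation factor that brings aminoacyl-tRNA, named after its values were seen, had 247, 295, 261 and 269 CPM post-molt, against 501, 490, 359 and 306 CPM pre-molt. All 3 lay lower in every post-molt library, as did 5.11% of all genes. The fold changes were -0.88 ± 0.21 for LRPPRC, -0.77 ± 0.20 for OXA1L and -0.63 ± 0.21 for TUFM (SE). DESeq2 called each lower, with adjusted p of 0.00246, 0.00444 and 0.0379, where it called 2.88% of the genes it gave an adjusted p. With edgeR none passed, with adjusted p of 0.0838, 0.117 and 0.215.

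Regulators of mitochondrial biogenesis (11 tested) had a median of 0.10, with 0 at an unadjusted p under 0.05. GABPA, a subunit of the nuclear respiratory factor that binds promoters of many mitochondrial genes, had 32.5, 28.1, 38.3 and 31.7 CPM post-molt, against 20.5, 25.2, 29.4 and 23.0 CPM pre-molt (0.41 ± 0.20, SE, edgeR adjusted p = 0.468). PPARGC1A, which encodes the coactivator PGC-1α, had 14.3, 25.1, 25.9 and 25.6 CPM post-molt, against 16.4, 9.75, 18.6 and 17.6 CPM pre-molt (0.54 ± 0.28, SE, edgeR adjusted p = 0.516). In both genes 3 of the 4 post-molt values lay above all pre-molt values and the fourth did not.

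The ribosomal RNAs of the small and large subunits, listed as 12S and 16S, had fold changes of -0.76 ± 0.26 and -0.77 ± 0.26 (SE, edgeR adjusted p = 0.249 and 0.233), with groups that overlapped. Without pre-molt 5842 they were -0.44 and -0.47. The libraries were made from poly-A RNA, so these counts need not follow the amount of ribosomal RNA.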

How the data were processed

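Per the labels and the study's methods, poly-A RNA was sequenced as paired reads, base calls were converted with bcl2fastq 2.20, and STAR mapped them on the genome of the Hawaiian monk seal. Its reads per gene were compared with DESeq2 1.18.1 in R 3.4.3. The authors deposited these counts, whole numbers per gene with no scaling. Reads of 1 species are therefore counted on gene models of another. Which strand column was used is not given in the sources used here, so a gene and an antisense gene over it cannot be told apart. The paper and the labels differ in the library kit, the RNA input and the time in RNAlater.

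Of 24349 entries, 11 carried no gene name (0.0173 to 0.0259% of a library's counts) and were left out. Genes were kept with filterByExpr of edgeR 4.0.16 (minimum count 10, minimum total count 15), which left 14312. Library sizes were scaled with TMM factors (0.842 to 1.14), and the times were compared by edgeR's quasi-likelihood test in R 4.3.3, with Benjamini-Hochberg adjustment over all genes tested and a threshold of 0.05. Standard errors and 95% intervals of fold changes come from that fit. CPM is TMM-scaled, and log2 CPM has a prior count of 2. No 2 libraries were copies of each other: chi-square per degree of freedom over the members was at least 25.3 for each pair. The p-values measure the spread between biopsies of 4 seals per time. The fit was tested on simulated data, where it missed most genes changed by 1 log2 unit and many of those changed by 2. It failed the recovery and mean-error criteria first set, and these were replaced by looser ones, so the simulation shows few false calls and sound intervals but not power. Its genes were drawn independently with the fitted spread and no shift shared within a library. It therefore does not show that calls and intervals are as sound in these data.

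Alternatives were upper-quartile and RLE factors, library sizes without the 20 most abundant genes, DESeq2 1.42.0, limma-voom (limma 3.58.1), robust edgeR, no filter, a filter of 1 CPM in 4 libraries, thinned counts, leaving out each library or both of seal 5572, no scaling factor and a prior count of 0.5. Leaving out pre-molt 5842 together with post-molt 9678 or 4448 was chosen after seeing the data.

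Named members were those past the threshold in edgeR or DESeq2; in each of MRPL and MRPS the 5 smallest p, the 2 largest rises and the 2 highest mean CPM; MRPL10, MRPL12, MRPS18A, MRPS30 and MRPS36; and in each partner list the 2 smallest p. The members, lists and rules were chosen with earlier results of these data known. MRPS18B was moved to the mitochondria-specific proteins after its values were seen, to match its current name. The partner lists come from general knowledge. No sequence is printed, since none was used here.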

Additional observations from a re-analysis of the deposited data

Results flagged for a closer look

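Each named gene was examined in each group of 4 for a library far from the other 3, 72 groups in all together with the mean levels of the lists. Chance alone marks about 5% of them, and the 2 marked here were fewer than that share. In MRPS30, the post-molt library of seal X410 had 27.0 CPM, against 17.0 to 18.6 CPM in the other post-molt libraries. In PPARGC1A, the post-molt library of seal 4448 had 14.3 CPM, against 25.1 to 25.9 CPM in the other post-molt libraries.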

How the results depend on the processing

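No member passed the edgeR test in the main setting or under any other edgeR setting or limma-voom, whereas DESeq2 called 2 lower. The number of members lower at an unadjusted p under 0.05, 5 in the main setting, was 3 with RLE factors, 3 without both libraries of seal 5572, 2 without pre-molt 5842 and post-molt 9678 and 2 without pre-molt 5842 and post-molt 4448. It ranged from 2 (without pre-molt 5842) to 7 (without pre-molt C497) when 1 library was left out. The number higher, 2 in the main setting, was 1 with upper-quartile factors, 1 without both libraries of seal 5572 and 7 without pre-molt 5842 and post-molt 4448, and ranged from 0 (without post-molt 5572, among others) to 4 (without pre-molt 5842). The last pair is made up of the libraries with the highest and the lowest mean level of the members, so leaving it out moves fold changes upward by construction. The pair of pre-molt 5842 and post-molt 9678 acts the same way, since post-molt 9678 had a mean below that of every pre-molt library. The causes of the other changes were not tested.

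The difference in mean log2 CPM was -0.14 with TMM factors and 0.011 with no scaling factor. The median fold change of all genes stayed between -0.08 and -0.01 in the scalings and fits run on all 8 libraries or without a pair. The median of the members ranged from -0.20 to -0.05 when 1 library was left out, that of MRPL from -0.18 to -0.04 and that of MRPS from -0.28 to -0.04. Among named members, MRPS18A had 0.13 without pre-molt 5842 and post-molt 9678 and 0.19 without pre-molt 5842 and post-molt 4448, and ranged from -0.34 to 0.12 when 1 library was left out. MRPS18B had 0.025 without pre-molt 5842 and post-molt 4448, and MRPS25 ranged from -0.022 to 0.41 when 1 library was left out. No paired analysis was possible because only seal 5572 has a library at both times and the labels number no replicates. With 4 seals per time, edgeR called 50 genes of the whole table, 9 to 48 when 1 library was left out, 5 without both libraries of seal 5572 and 0 without either pair that includes pre-molt 5842.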
